A study of Mus musculus with 8 samples.

Results

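The 2'-5'-oligoadenylate synthetases (OAS) are antiviral proteins whose genes are switched on by interferon. Here they are the 8 genes Oas1a, Oas1b, Oas1c, Oas1g, Oas2, Oas3, Oasl1 and Oasl2, chosen by symbol from the 24421 entries of a gene count table from mouse RAW macrophages. All 8 passed a filter on low values (a mean of at least 10 normalized counts over the 8 libraries), which left 11647 genes to test.

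OAS proteins bind double-stranded RNA, a mark of viral infection, and then join ATP into short chains linked from the 2' to the 5' position, called 2-5A. 2-5A signals within the cell for RNA to be cut, which stops viral and cellular protein synthesis. In macrophages the genes respond to type I interferon, which bacterial lipopolysaccharide (LPS) also elicits through Toll-like receptor 4.

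RAW macrophages are a line from a mouse tumour induced by a leukaemia virus, so all libraries come from a single line, and a virus-transformed one. RNA was sequenced from 4 groups, with 2 libraries in each. The group called Ctrl had no treatment. Cells of the statin group were given statin (7 µM) with lipoprotein-deficient serum (LPDS). In the study's account this was lovastatin with mevalonate for 2 days. The ctl LPS cells received LPS (100 ng/ml for 3 h in medium with bovine serum albumin), and statin LPS cells received both treatments. Whether cells without statin were also kept in LPDS or given mevalonate is not stated in the sources used here. Statin, serum and mevalonate therefore cannot be told apart. The sources do not say whether libraries of a group came from separate cultures, so p-values measure only the spread between these libraries, which may be technical.

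The libraries held 37001178 to 76423673 counted reads, and 1 read was worth 0.781 to 1.33 normalized counts. The sum of normalized counts, in units of 10 to the sixth, was 36.3 in each Ctrl library, 39.3 and 39.4 with statin alone, 64.2 and 64.0 with LPS alone and 50.7 and 50.3 with both. All 8 macrophage markers examined had reads in every library. Complement and collagen genes (C1qa, C1qb, C1qc, Col1a1, Col1a2, Col3a1) had 197 to 959 reads in ctl LPS replicate 1, at most 1 in replicate 2, and 52 to 172 in the statin LPS libraries. The precursor ribosomal RNA Rn45s took 1.72% of reads in statin replicate 2 and 0.0705 to 0.153% elsewhere.

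The 8 genes lie on chromosome 5 at 2 places (mouse build mm10, GENCODE annotation). Oasl2 (114896936 to 114912234) and Oasl1 (114923240 to 114937915) are neighbours on the plus strand. After a gap of 5.79 Mb follow Oas2 (120730333 to 120749853), Oas3 (120753098 to 120777661), Oas1c (120800194 to 120812514), Oas1b (120812635 to 120824163), Oas1g (120876142 to 120887613) and Oas1a (120896256 to 120907521), within 177 kb. In this cluster every member but Oas1b is on the minus strand.

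Interferon-regulated promoters often carry the interferon-stimulated response element (ISRE), which interferon-activated transcription factors bind. Promoter windows of 250 bases before to 50 after the start were in the RefSeq table (GRCm38.p6) for 6 of the 8 members, all but Oas1b and Oas2. Its letters, taken as GAAA, any 2 bases and GAAA again on either strand, were found in 4 of those 6 windows, against 3.44% of all 32851 windows (1131). The 120 bases before the start of these 4 genes are shown to let the position and strand of these letters be compared. All are written 5′ to 3′ along the gene's own minus strand, and capitals mark the ISRE letters.

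Oas1a, chr5:120907526-120907645: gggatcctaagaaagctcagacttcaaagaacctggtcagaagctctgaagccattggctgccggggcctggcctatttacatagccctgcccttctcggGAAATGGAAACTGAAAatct
Oas1g, chr5:120887614-120887733: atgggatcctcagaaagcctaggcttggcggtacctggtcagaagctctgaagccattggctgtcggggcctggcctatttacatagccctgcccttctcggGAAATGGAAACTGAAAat
Oas1c, chr5:120812515-120812634: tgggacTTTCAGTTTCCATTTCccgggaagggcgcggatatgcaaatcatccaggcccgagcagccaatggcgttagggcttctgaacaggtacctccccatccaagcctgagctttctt
Oas3, chr5:120777660-120777779: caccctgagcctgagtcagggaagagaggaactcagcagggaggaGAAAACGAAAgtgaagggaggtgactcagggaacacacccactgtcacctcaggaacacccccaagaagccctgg

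Oas1a and Oas1g each held a pair of overlapping matches, ending 5 and 3 bases before the start. Their whole windows were identical at 85.3% of aligned positions (261 bases), while the other pairs of member windows ranged from 41.9 to 48.5%. In Oas1c the pair lay on the opposite strand, 114 to 99 bases before its start. Those 120 bases are the entire gap between the divergently read Oas1c and Oas1b, so the same letters lie 22 to 7 bases before the Oas1b start and run along the Oas1b strand. Oas3 held a single match 75 to 66 bases before its start. The window of Oas1a also held the gamma-interferon-activated site letters (TTC, any 3 bases and GAA, either strand), found in 8.3% of all windows. The windows of Oasl1 and Oasl2 held neither motif. A match is only a match of letters, and binding was not measured.

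The Oas1 genes encode the smallest OAS proteins, with a single catalytic unit. In mice Oas1a and Oas1g encode active synthetases. Oas1a stood at 2567 and 1879 normalized counts in untreated cells and 1029 and 1301 after statin, and with LPS at 21101 and 21425 without statin and 4010 and 3918 with it. All 4 groups were apart from each other, with ctl LPS highest and statin lowest. In these bulk libraries less RNA per cell and fewer responding cells cannot be told apart. Oas1g stood at 1632 and 841 in untreated cells and 482 and 613 after statin, and with LPS at 12976 and 13073 without statin and 2740 and 2461 with it. It took the same order, without overlap, although its Ctrl libraries lay 0.96 apart on the log2 scale. These 2 genes share sequence: 40.9% of the 100-base stretches of Oas1a occur in Oas1g and 31.3% the other way, so reads may be split between them uncertainly. Their sum does not depend on that split, but it would miss reads left out for matching both genes. Whether such reads were left out is not given in the sources used here. The sum stood at 4200 and 2720 in untreated cells and 1511 and 1914 after statin. With LPS it stood at 34078 and 34498 without statin and 6749 and 6379 with it. With statin the summed level was 49.5% of Ctrl at rest and 19.1% of ctl LPS under LPS.

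Oas1b, the gene of flavivirus resistance in mice, is truncated in most laboratory strains and annotated as a polymorphic pseudogene. It stood at 156 and 135 normalized counts in untreated cells and 97.6 and 102 after statin, and with LPS at 3283 and 3360 without statin and 848 and 695 with it, with no overlap of groups. Oas1c, an Oas1 copy without known synthetase activity in mice, was the member that moved least under LPS. It stood at 261 and 217 in untreated cells and 110 and 164 after statin, and with LPS at 623 and 729 without statin and 231 and 170 with it. Its statin LPS libraries overlapped the range of Ctrl, and the higher statin library lay just under the lower statin LPS library. An antisense gene model, Gm43069, covers 9.44% of its exons, and whether counting used strand is not given in the sources used here.

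Oas2 and Oas3 carry additional copies of the OAS unit, and OAS3 is the main source of 2-5A in human cells. Oas2 stood at 1885 and 1387 normalized counts in untreated cells and 850 and 1164 after statin, and with LPS at 18498 and 18812 without statin and 4070 and 3671 with it, in the order seen for Oas1a. Oas3 stood at 5789 and 3283 in untreated cells and 2990 and 3887 after statin, and with LPS at 30675 and 30889 without statin and 7122 and 7727 with it. At rest its groups overlapped, since the lower Ctrl library fell between the statin libraries, while under LPS they were far apart.

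Oasl1 and Oasl2 encode OAS-like proteins with ubiquitin-like tails. In mice Oasl2 is an active synthetase, whereas Oasl1 is not and blocks translation of Irf7, the factor that amplifies interferon production. Oasl1 stood at 1444 and 933 normalized counts in untreated cells and 964 and 1144 after statin, and with LPS at 97506 and 99259 without statin and 41573 and 39180 with it. It overlapped between Ctrl and statin, and both LPS groups were far above them and apart from each other. Oasl2 stood at 162 and 88.2 in untreated cells and 65.4 and 63.9 after statin, and with LPS at 25906 and 25738 without statin and 1370 and 1359 with it. The ctl LPS libraries were far above all others, and the statin LPS libraries were nearly alike.

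**Figure D1:**
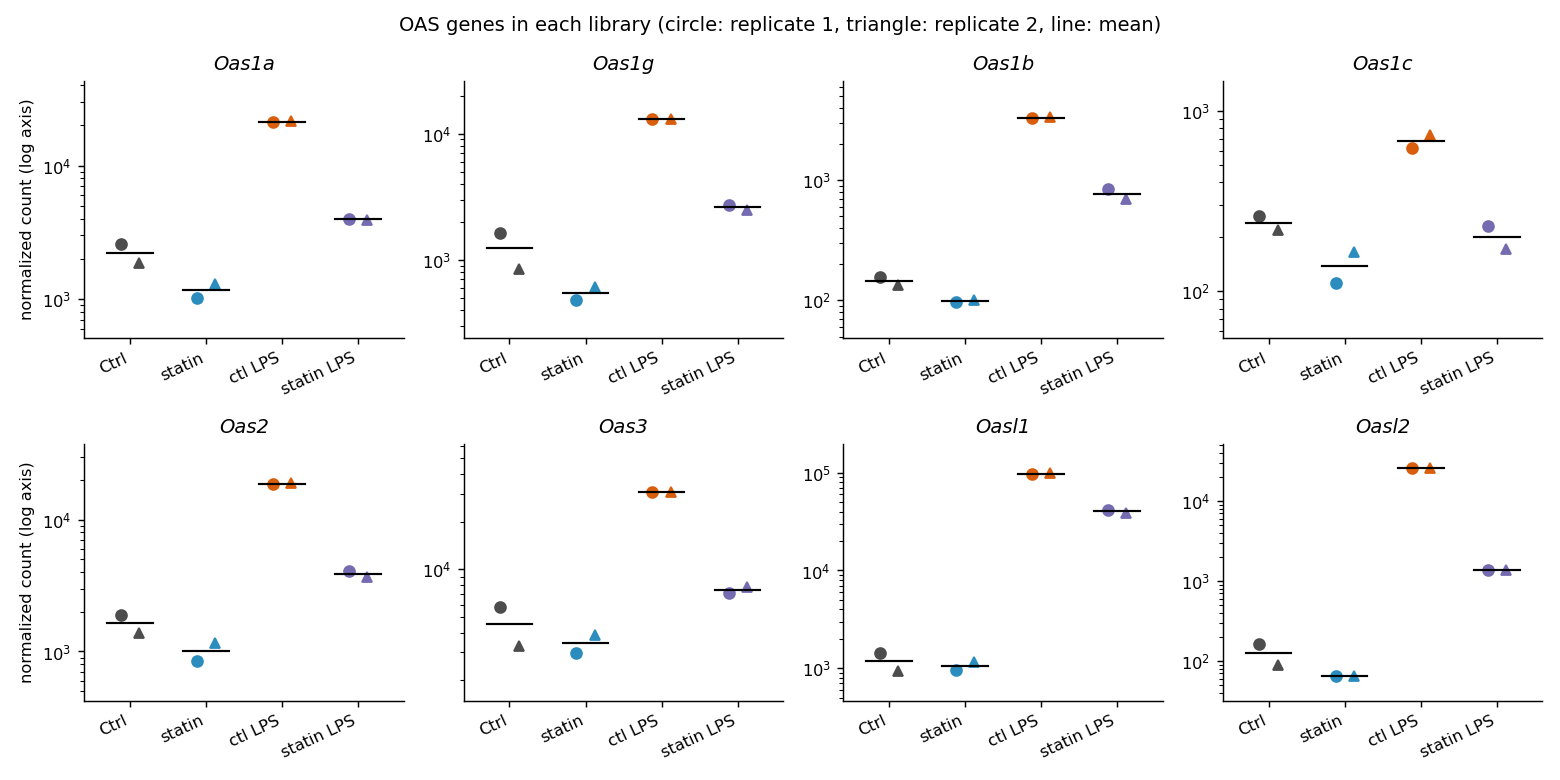
Normalized counts (log axis) of the 8 OAS genes in the 4 groups of 2 libraries, with a circle for replicate 1, a triangle for replicate 2 and a line at the group mean. Each OAS gene peaks in ctl LPS (Oasl2 at 25906 and 25738) and is lower in statin LPS (Oasl2 at 1370 and 1359).

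At rest, in the comparison of statin with Ctrl, 6 of 8 members fell and none rose, where 25.7% of the 11647 tested genes fell and 30.4% rose at an adjusted p under 0.05 (limma, Benjamini-Hochberg over all tested genes). The member median was −0.76 on the log2 scale against 0.01 for all tested genes. Oas1g fell by 1.11 ± 0.26 (log2, SE, 2 libraries a group, limma adjusted p = 0.00706) and Oas1a fell by 0.92 ± 0.15 (limma adjusted p = 0.00107). Oasl2 changed by −0.88, Oas1c by −0.82, Oas2 by −0.70 and Oas1b by −0.54, with limma adjusted p from 0.00581 to 0.0140. Oas3 (−0.35 ± 0.23, limma adjusted p = 0.221) and Oasl1 (−0.14 ± 0.18, limma adjusted p = 0.512) did not pass.

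The 6 falls were larger than the difference between libraries in either group, though for Oas1g (1.11 against 0.96) and Oasl2 (0.88 against 0.87) only slightly. All 8 members were higher in Ctrl replicate 1 than in replicate 2, by a median of 0.54 on the log2 scale. Of all tested genes 53% were higher in replicate 1, with a median difference of 0.017 and a median absolute difference of 0.163. All 12 interferon-induced effector genes listed below were also higher in that library. The statin libraries differed the other way, with replicate 1 higher for 1 of 8 members and for 50.1% of all tested genes. The main fit shares 1 estimate of the spread over all 4 groups, and the LPS libraries lay closer together than the resting ones. The median absolute difference of all tested genes was 0.1145 in statin, 0.0522 in ctl LPS and 0.0618 in statin LPS. The standard errors and p-values at rest therefore draw partly on the tighter LPS pairs. When only the 4 resting libraries entered the fit, Oas1a alone passed, and the other 5 had limma adjusted p from 0.0547 to 0.0900. Without statin replicate 1, Oas1a and Oas1b passed, while Oas1c (0.0994), Oas1g (0.0628), Oas2 (0.0607) and Oasl2 (0.0544) did not. Oasl2 was also lost without statin replicate 2 (0.0559) and Oas1c without Ctrl replicate 1 (0.0627). Without ctl LPS replicate 1 and statin replicate 2 together 4 members passed, and Oas1b (0.0572) and Oasl2 (0.0970) did not. Oas3 and Oasl1 passed as lower without Ctrl replicate 2 (limma adjusted p = 0.00200 and 0.00451) and turned to 0.05 and 0.17 without Ctrl replicate 1.

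LPS without statin raised all 8 members, where 39.9% of tested genes rose and 37.6% fell. Oasl2 rose most, by 7.74 ± 0.23 (log2, SE, a 214-fold change), followed by Oasl1 at 6.40 ± 0.18 (84.7-fold) and Oas1b at 4.50 ± 0.12 (22.7-fold). Oas2 rose by 3.53, Oas1g by 3.47, Oas1a by 3.27 and Oas3 by 2.82. Oas1c rose least, by 1.5 ± 0.22 (2.83-fold). The member median was 3.50, and all 8 stayed called under each of the 20 alternative settings. Because the summed normalized counts were larger under LPS, scaling every library to the same total lowered the median of all genes in this comparison by 0.82, and the member median was then 2.68.

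LPS also raised 7 of 8 members in statin-treated cells, where 29.2% of tested genes rose and 29.0% fell. Oasl1 rose by 5.26 ± 0.18 (38.4-fold) and Oasl2 by 4.38 ± 0.23 (20.8-fold). Oas1b rose by 2.93, Oas1g by 2.25, Oas2 by 1.96, Oas1a by 1.78 and Oas3 by 1.12. Oas1c, at 0.55 ± 0.22, did not pass (limma adjusted p = 0.0616). It passed in 4 of 20 alternatives, with limma adjusted p from 0.0228 to 0.0448, among them the fit without statin replicate 2 (0.84, limma adjusted p = 0.0228). The ctl LPS against Ctrl and statin LPS against statin comparisons share no library.

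Under LPS, statin lowered all 8 members, where 32.9% of tested genes fell and 31.4% rose. Oasl2 had the largest fall, to 5.28% of its ctl LPS level (−4.24 ± 0.23, log2, SE, limma adjusted p = 1.35e-06). It ranked 68 from the lowest fold change among the 11647 tested genes. Oas1a fell to 18.6%, Oas1g to 19.96%, Oas2 to 20.7%, Oas1b to 23.2%, Oas3 to 24.1% and Oas1c to 29.6% of ctl LPS. Oasl1 fell least, to 41.0% (−1.29 ± 0.18, limma adjusted p = 0.000298). The member median was −2.19 against −0.01 for all tested genes, and all 8 stayed lower and called under each of the 20 alternatives.

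**Figure D2:**
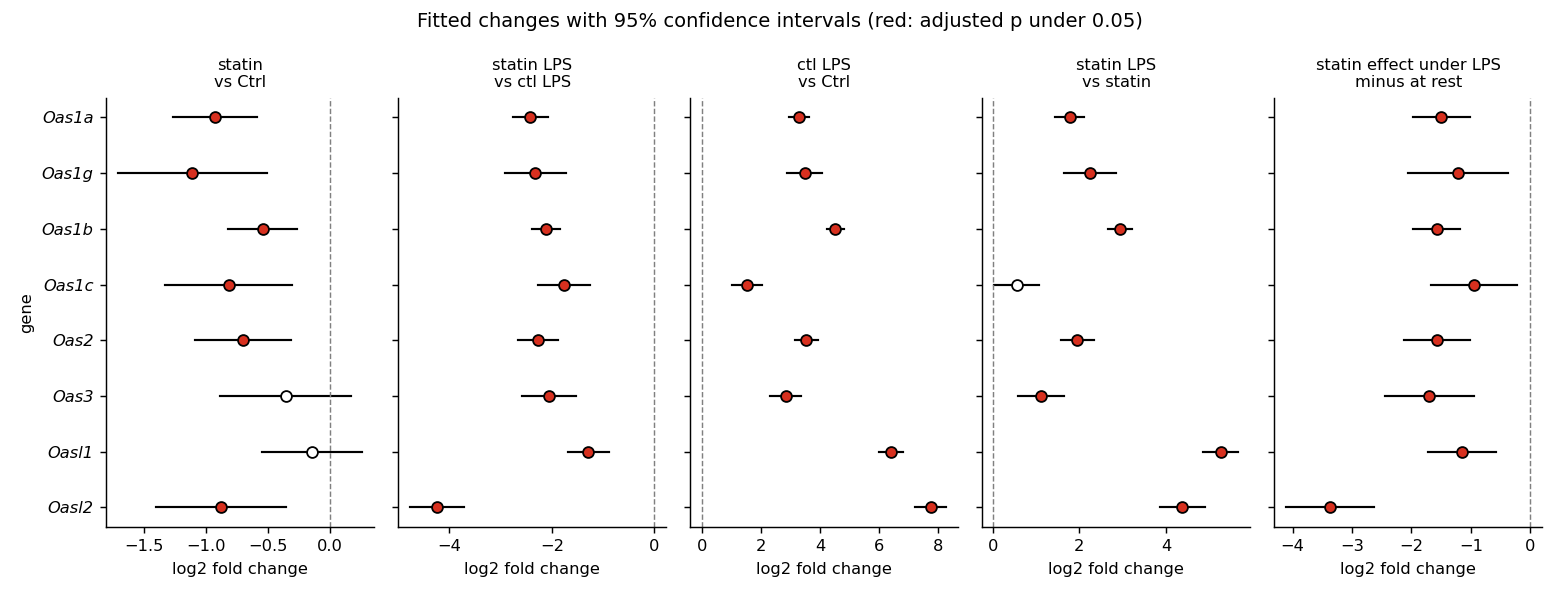
Fitted log2 fold changes (points) with 95% confidence intervals (lines) of the 8 OAS genes in 4 comparisons and in the difference of the statin effects, red where the adjusted p was under 0.05. Under LPS all 8 genes lie below 0 with statin, from −4.24 for Oasl2 to −1.29 for Oasl1, while at rest the interval of Oas3 and that of Oasl1 cross 0.

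The statin effect under LPS was compared with that at rest by an interaction term over all 8 libraries. The fall was larger under LPS for all 8 members, where 30.1% of tested genes had a lower and 25.5% a higher value. The difference was −3.36 ± 0.32 for Oasl2 (log2, SE, limma adjusted p = 5.01e-05), and −1.70 for Oas3, −1.57 for Oas1b, −1.57 for Oas2 and −1.499 for Oas1a. It was −1.22 ± 0.37 for Oas1g (limma adjusted p = 0.0215), −1.14 ± 0.25 for Oasl1 (limma adjusted p = 0.00479) and −0.95 ± 0.31 for Oas1c (limma adjusted p = 0.0321). Of these calls, those of Oas1c and Oas1g lay closest to the threshold. Oas1c was lost without Ctrl replicate 2, statin replicate 2, either ctl LPS library or statin LPS replicate 2 (−0.66 to −1.06, limma adjusted p from 0.0506 to 0.119). Oas1g was lost without statin replicate 2 or any of the 4 LPS libraries (−1.05 to −1.30, limma adjusted p from 0.0506 to 0.0861). The count of members called ranged from 6 to 8 when 1 library was left out and was 5 without ctl LPS replicate 1 and statin replicate 2 together, where Oas1c (0.134), Oas1g (0.165) and Oasl1 (0.0666) did not pass. Scaling to equal totals left 6, without Oas1c (−0.49) and Oas1g (−0.76), and quantile normalization left 6, without Oas1g (−0.75) and Oasl1 (−0.50, limma adjusted p = 0.164). The member median was then −1.08 and −1.01. Oas1a, Oas1b, Oas2, Oas3 and Oasl2 stayed called under all 19 alternatives that could be run.

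Levels were compared between genes per kb of exon, with all annotated exons of a gene counted. The spread between libraries does not cover an error in that length or in the counting of reads that match both Oas1a and Oas1g. In Ctrl, Oas1a was highest, at 1179 ± 258 normalized counts per kb (SD, n = 2), followed by Oas3 (642 ± 251), Oas1g (529 ± 239), Oasl1 (456 ± 139) and Oas2 (368 ± 79.1). From Oas3 to Oas2, neighbours in this order did not differ beyond their spread. Oas1c (99.2 ± 13.0), Oas1b (73.1 ± 7.42) and Oasl2 (19.7 ± 8.23) followed. In ctl LPS, Oasl1 led at 37724 ± 475, ahead of Oas1a at 11280 ± 121 and Oas1g at 5566 ± 29.2. Oas3 (4355 ± 21.4), Oas2 (4191 ± 49.9) and Oasl2 (4051 ± 18.6) were close to each other. They lay further apart than their spread between libraries, which does not settle their order. Oas1b (1668 ± 27.5) and Oas1c (281 ± 30.97) were lowest. Oasl2 had the lowest level of the family in Ctrl and came close to Oas2 here. After statin alone the levels ran from Oas1a (618 ± 102), Oas3 (486 ± 89.8) and Oasl1 (404 ± 48.7) through Oas1g (234 ± 39.6) and Oas2 (226 ± 49.9) to Oas1c (57.1 ± 15.98), Oas1b (49.98 ± 1.39) and Oasl2 (10.1 ± 0.16).

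In statin LPS, Oasl1 stood at 15482 ± 649 per kb and Oas1a at 2103 ± 34.3. Oas1g (1111 ± 84.1) and Oas3 (1050 ± 60.5) lay within each other's spread, ahead of Oas2 (870 ± 63.3), Oas1b (387 ± 54.7), Oasl2 (214 ± 1.27) and Oas1c (83.3 ± 17.8). Of the summed per-kb level of the family, Oasl1 held 13.6 and 13.4% in untreated cells and 20.1 and 18.8% after statin, and with LPS 54.5 and 54.7% without statin and 72.8 and 72.6% with it. These shares did not overlap between groups. The share of Oas1a went the other way, from 33.5 and 37.4% in Ctrl to 9.71 and 10.0% in statin LPS, and that of Oasl2 was 5.93 and 5.80% in ctl LPS against 0.98 and 1.03% in statin LPS.

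**Figure D3:**
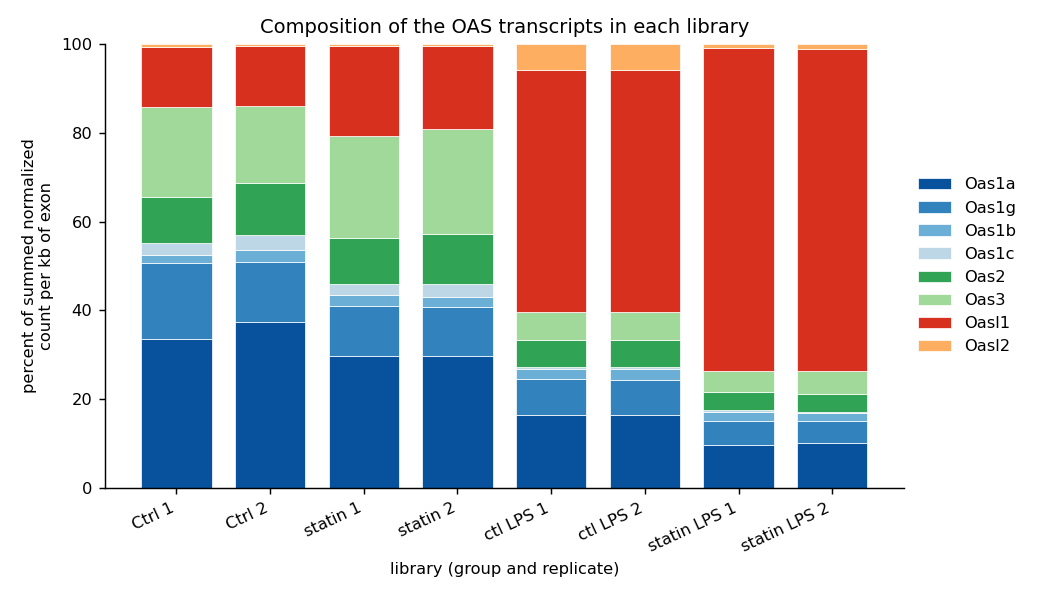
Stacked bars give, for each of the 8 libraries, the percent of the summed normalized count per kb of exon that each OAS gene contributed. The Oasl1 part grows from 13.6 and 13.4% in Ctrl to 54.5 and 54.7% with LPS alone and 72.8 and 72.6% with statin and LPS. All annotated exons of a gene are counted, and the counting of reads that match both Oas1a and Oas1g is uncertain.

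Of 7 other genes listed for the 2-5A pathway, the Oas1 copies Oas1d, Oas1e, Oas1f and Oas1h had at most 6 reads in any library and were not tested. Mb21d1, which encodes cGAS, a DNA sensor with the same fold as OAS, stood at 2444 and 2126 normalized counts in untreated cells and 1414 and 1475 after statin, and with LPS at 6352 and 6543 without statin and 2852 and 2780 with it. It rose with LPS by 1.5 ± 0.08 and fell with statin by 1.195 ± 0.08 under LPS and by 0.66 ± 0.08 at rest, all called by limma. Pde12 encodes a phosphodiesterase that degrades 2-5A, and Abce1 an ATPase that splits ribosomes for reuse. They ranged from 1420 to 2124 and from 10517 to 14157. With statin under LPS they rose, Pde12 by 0.53 ± 0.07 and Abce1 by 0.42 ± 0.08, and with LPS alone they fell by 0.24 and 0.28. These were small changes, and the call for Pde12 with LPS alone was lost without ctl LPS replicate 2 (limma adjusted p = 0.0790), and that for Abce1 without ctl LPS replicate 1 and statin replicate 2 together (0.0575).

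Of the 13 interferon signalling genes described, 12 rose with LPS alone (median 2.485) and Irf3 fell by 0.44. In this comparison 39.9% of tested genes rose and 37.6% fell. Ifnb1, the gene of interferon beta, rose from 9.37 and 4.90 normalized counts in Ctrl to 9401 and 9641 in ctl LPS. The feedback inhibitor gene Socs1 rose by 6.78, and the interferon regulatory factors Irf1 and Irf7 by 6.31 and 5.93. Statin under LPS lowered 11 of 13 and raised Irf3 by 0.18, with a median of −1.28. Among all tested genes 32.9% fell and 31.4% rose. Ifnb1 stood at 857 and 619 in statin LPS (−3.71 ± 0.27). Irf7 fell by 3.31, and Socs1 and Stat2, which encodes an interferon-activated transcription factor, by 2.32 each. The rise of Irf3 was lost in 7 of the 20 alternatives. Among them were quantile normalization (0.128, limma adjusted p = 0.101), DESeq2 (adjusted p = 0.0711) and the fits with any 1 of the 4 LPS libraries left out.

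At rest 1 of the 13 interferon signalling genes fell with statin and 6 rose, with a median of 0.08. These counts stand beside 25.7% of all tested genes that fell and 30.4% that rose. Ifnar2, which encodes a subunit of the interferon receptor, fell by 0.58 ± 0.10 (limma adjusted p = 0.00138). Stat2 rose by 0.37 ± 0.09, but with statin replicate 2 left out it no longer passed (limma adjusted p = 0.0628). Socs1 was higher by 0.57 and Ifnb1 by 0.77, both at low levels (Ifnb1 at 13.4 and 11.3 in statin). The limma adjusted p of Ifnb1 there was 0.0384, and it passed in neither edgeR (0.298) nor DESeq2 (0.184), nor when Ctrl replicate 2, a statin library or a ctl LPS library was left out (0.0678 to 0.171). Without statin LPS replicate 1 it lay at the threshold. Socs1 was lost without either statin library (0.0777 and 0.0608). With statin replicate 2 and ctl LPS replicate 1 both left out, none of Stat2 (0.116), Socs1 (0.123) and Ifnb1 (0.129) passed by limma. In the difference of the statin effects, 10 of the 13 were lower and 1 higher, where 30.1% of tested genes were lower and 25.5% higher.

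The list for sensing of double-stranded RNA, the ligand of OAS, held 9 genes, with sensors and adaptors among them. With LPS alone 8 rose and Mavs, the adaptor of the cytosolic sensors, fell by 0.68, where 39.9% of tested genes rose and 37.6% fell. The nucleic acid sensor gene Zbp1 rose by 8.43, the cytosolic sensor genes Ifih1 (MDA5) and Ddx58 (RIG-I) by 7.62 and 5.25, and the endosomal receptor gene Tlr3 by 4.65. With statin under LPS 7 fell, where 32.9% of tested genes fell and 31.4% rose. Tlr3 fell by 4.01, Zbp1 by 3.91, Ddx58 by 2.60 and Ifih1 by 2.54. Ticam1, the adaptor of Tlr3, rose by 1.00 and Mavs by 0.48. At rest Ticam1 rose by 1.16 with statin, Adar rose by 0.29 and Tlr3 fell by 0.56, and the other 6 did not pass. The shares of all tested genes were 30.4% higher and 25.7% lower. The call of Adar was lost with equal totals (0.17, limma adjusted p = 0.0610), with only the 4 resting libraries (0.0599) and when statin replicate 2 and ctl LPS replicate 1 were both left out (0.0687).

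Other interferon-induced effectors, genes whose products act against viruses or on interferon signalling, were listed as 12 genes. All 12 rose with LPS (median 8.61) and all 12 fell with statin under LPS (median −3.10). Of all tested genes, 39.9% rose in the first of these comparisons and 32.9% fell in the second. Rsad2, which encodes viperin, rose by 9.91 and Mx1, a GTPase that blocks viral nucleocapsids, by 9.67, with Ifit1 at 9.40 and Ifit3 at 9.29. With statin under LPS, Mx1 changed by −5.36, Ifit3 by −4.40, Ifit2 by −3.60 and Rsad2 by −3.37. At rest only Herc6 (−0.77) and Ifit2 (−0.42) passed, both lower, where 25.7% of all tested genes fell. With only the 4 resting libraries both still passed (0.0266 and 0.0434), and Ifit2 did not without ctl LPS replicate 1 and statin replicate 2 together (0.0556). The effector median at rest was −0.12, and the difference from the OAS genes was not tested.

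**Figure D4:**
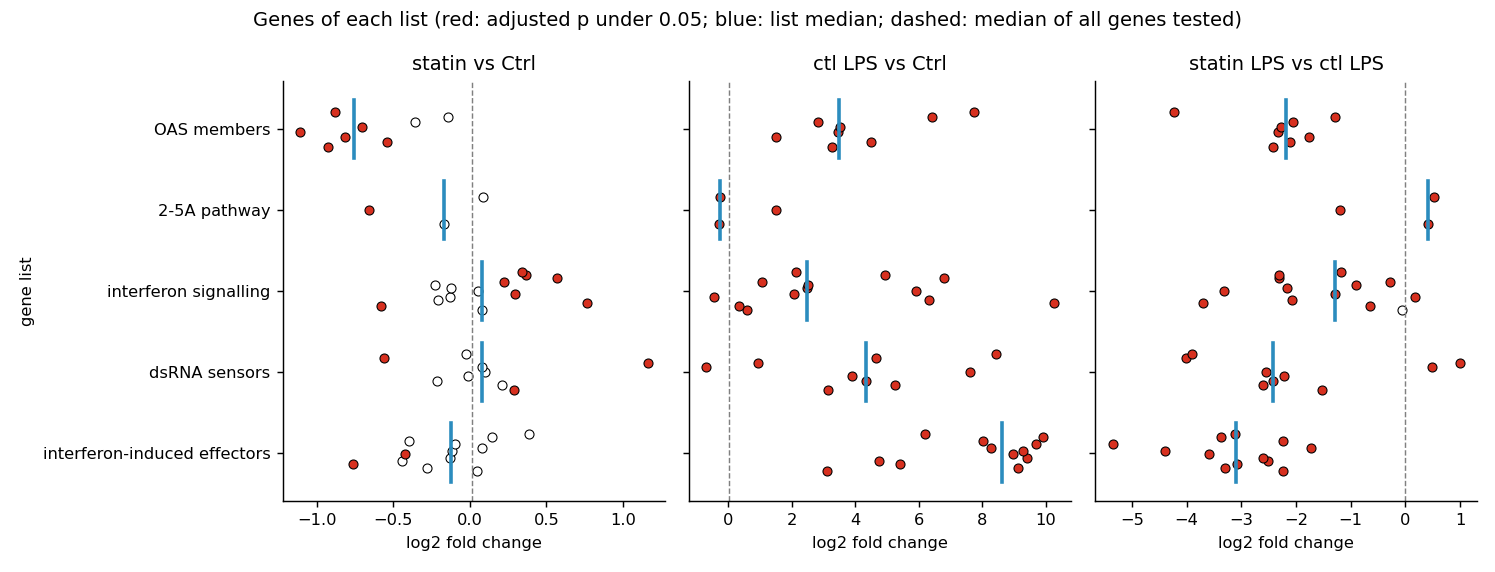
Log2 fold changes of the tested genes of each list in 3 comparisons, red where the adjusted p was under 0.05, with a blue bar at the list median and a dashed line at the median of all tested genes. The OAS median was −0.76 at rest, 3.50 with LPS alone and −2.19 for statin under LPS, while the effector medians were −0.12, 8.61 and −3.10.

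Among themselves, the members' profiles over the 8 libraries were compared as the root mean square difference of their centred log2 values, in which a gene's overall level drops out. Oas1a and Oas2 were closest, at 0.15, followed by Oas1g and Oas2 (0.205) and Oas1a and Oas1g (0.226). Oas1c and Oasl2 were farthest apart, at 2.68. Oasl1 and Oasl2 lay 1.09 from each other. From the median profile of the 8, Oas2 was 0.0916 away, Oas1g 0.121 and Oas1a 0.169, while Oasl1 was 1.56 and Oasl2 1.76 away.

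Among the 10 genes outside the family with the profile closest to that median over the 8 libraries were Calcrl, Sass6, Parp12, Parp10, Parp9, Fam129a, Dhx58, Ifi35 and Nt5c3. Calcrl, the gene of the calcitonin receptor-like receptor, was at 0.236, nearer than 5 of the 8 members themselves. It stood at 5147 and 3273 normalized counts in untreated cells and 1983 and 1809 after statin, and with LPS at 43501 and 42918 without statin and 11682 and 11837 with it. Dhx58, which encodes the RNA helicase LGP2, was at 0.312, and Nt5c3 was the tenth at 0.330.

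Markers of other cell types were summed as normalized counts in each library. The 3 complement genes C1qa, C1qb and C1qc summed to 0 to 5.88 at rest, 1634 in ctl LPS replicate 1, 1.25 in replicate 2 and 273 to 365 in statin LPS. Between the ctl LPS replicates no OAS gene differed by more than 0.22 on the log2 scale, the value of Oas1c. The 7 fibroblast genes summed to 45.3 to 166 in Ctrl, 437 to 597 in statin, 41.3 to 897 in ctl LPS and 443 to 541 in statin LPS, with Thy1 at 0 in all libraries. In statin nearly all of that was Pdgfrb (436 and 596), with the other 6 genes at 0 to 0.94 each. The sum of the 4 lymphocyte genes described was higher with LPS alone (1539 to 1645) than in Ctrl (145 to 198), statin (236 to 291) and statin LPS (404 to 423). Nearly all of that was Lck, while Cd3e and Ms4a1 had at most 1 in any library. The 3 dendritic cell genes summed to 89.8 to 107 in Ctrl, 151 to 165 in statin, 336 to 342 with LPS alone and 412 to 448 with both, nearly all from Zbtb46, as Siglech and Flt3 had at most 3 reads in any library. The part of these markers in the OAS results was not tested.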

How the data were processed

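Total RNA was depleted of ribosomal RNA and made into stranded libraries. The deposited values are a signal, the authors' normalized counts per gene symbol, which are whole reads divided by a library size factor. The submitters' processing notes name STAR 2.5.3, HTSeq 0.9.1, DESeq2 1.18.1 and mm10 with no role, and whether counting used strand is not given in the sources used here. The authors' fold-change and p-value columns, and 12 other per-sample columns, were not used. Of 24421 symbols 27 had been turned into dates. In every library 100% of the values were whole multiples (within 0.01) of 1 read.

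Genes with a mean of at least 10 were tested as log2(normalized count + 1) with limma 3.58.1 in R 4.3.3 (1 mean per group, all 8 libraries, trended variance, 4 residual degrees of freedom). A call is an adjusted p under 0.05 (Benjamini-Hochberg). Fold changes are on that scale. Tests are two-sided. The method was run on simulated data with the spread of the Ctrl pair in all groups, so unequal spread between groups was not tried. Alternatives were pseudocounts, filters, scalings, a replicate block, libraries left out, and edgeR 4.0.16 and DESeq2 1.42.0 on recovered reads.

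The OAS genes, the lists and the rule for named genes were chosen with earlier results of these data known. All 8 members are named. Of each list, up to 4 called genes with the largest absolute change are named per comparison, and uncalled or opposite ones where a count turns on them. Some listed genes are not reported here. Replicate numbers were not treated as pairing libraries across groups, and the sources used here do not say whether they do.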

Additional observations from a re-analysis of the deposited data

Results flagged for a closer look

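The statin effect differed between LPS-treated and resting cells, by the interaction test of the main fit, for all 8 OAS genes. Of the 19 alternatives, the call was lost in 9 for Oas1g, in 8 for Oas1c and in 2 for Oasl1. The log2 difference (statin effect under LPS minus at rest) was −3.36 for Oasl2, −1.70 for Oas3, −1.57 for Oas1b, −1.57 for Oas2, −1.50 for Oas1a, −1.22 for Oas1g, −1.14 for Oasl1 and −0.95 for Oas1c. In all of them the fall under LPS was the larger, while 30.1% of all tested genes had a called difference in that direction. With 2 libraries a group, no group was large enough to look for a single outlying library.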

How the results depend on the processing

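The 20 alternatives (19 for the difference of the statin effects, where a fit to the contrast's own libraries does not apply) gave 792 values for the 8 members. Of these 752 kept their direction and their side of the threshold, 32 were no longer called, 6 became called and 2 changed sign. The sign changes were Oas3 (0.054) and Oasl1 (0.171) for statin against Ctrl without Ctrl replicate 1, and with 1 library left out their lowest values were −0.764 and −0.459. For LPS in statin-treated cells, equal totals turned Pde12 to −0.155 and Abce1 to −0.055, and quantile normalization turned Abce1 to −0.105. The cause was not tested.

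Statin against Ctrl called 6 members, 1 with only the 4 libraries of that comparison, and 2 to 8 when 1 library was left out. The difference of the statin effects called 8 members, 5 without ctl LPS replicate 1 and statin replicate 2 together, 6 with equal totals or quantile normalization, and 6 to 8 when 1 library was left out. LPS in statin-treated cells called 6784 genes, and 4448 without those same libraries. Of 1132 values for 57 named pairs of list gene and comparison, 1072 kept their call and direction, 57 lost the call and 3 changed sign.

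With the replicate number as a block, the fit called 6 members for statin against Ctrl and 8 for statin under LPS, and no member call changed. The block was not used because deviations of equally numbered libraries correlated at −0.0513 to 0.0959.

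Equal totals moved the share of higher calls from 54.2 to 40.4% for statin against Ctrl, from 48.9 to 74.9% for statin under LPS, from 51.5 to 20.9% for LPS alone, from 50.1 to 18.9% for LPS in statin-treated cells and from 45.9 to 75.8% for the difference. No member changed direction with equal totals or quantile normalization. The statin LPS libraries held 265 and 128 reads of Oas1c, the fewest of the 8 members there.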
